A study of Mus musculus with 12 samples.

Results

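Aminoacyl-tRNA synthetases are the enzymes that load each tRNA with its amino acid. The genes described here are 36 of the 24411 genes in the deposited tables, taken by name from a list of synthetases: 20 whose symbol has no 2 at the end, called cytosolic, and 16 whose symbol ends in 2, called mitochondrial. All 36 were found in each table. The study lowered Nampt (visfatin) in early mouse embryos and asked what this does. It sequenced poly(A) RNA of 12 libraries, each from a pool of 10 blastocysts of ICR mice, an outbred stock, of wild-type genotype. The embryos came from superovulated oocytes fertilized in vitro and were cultured in KSOM medium to 96 hpi. The diet labels ND and HFD, not spelled out in the labels (normal weight and obese mice are named in the title), were crossed with 3 treatments: C (control), siNT (a non-targeting siRNA) and siNampt (an siRNA against Nampt). Both siRNAs were given by electroporation at the one-cell stage. The sources used here do not say whether the C embryos were electroporated. Each of the 6 groups had 2 libraries, replicate 1 labelled batch 1 and replicate 2 labelled batch 2. They also do not say what the batch number stands for, or whether batch 1 of ND and batch 1 of HFD were handled together. The labels do not say that the pools came from separate matings, so p-values measure the spread between these pools.

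Libraries held 42473129 to 50503064 expected counts, of which the 36 genes took 0.347 to 0.560%. All 36 passed the filter on low counts, with 14743 genes in all. The libraries carried the markers of a blastocyst: Krt18, a keratin of the trophectoderm, the outer layer that forms the placenta, was at 1865 to 3786 TPM, and the 3 inner cell mass markers summed to 50.9 to 104 TPM. The 5 cumulus cell markers summed to at most 0.50 TPM in a library and the 3 sperm markers to 0.37 to 1.66 TPM, with Tnp1 at 0 in 12 of 12. Nampt, the target of the siRNA and an enzyme of NAD synthesis from nicotinamide, stood at 8.83 and 12.4 TPM (ND) and 11.1 and 11.6 TPM (HFD) in the siNampt libraries, against 10.2 and 15.3 TPM (ND) and 13.8 and 14.6 TPM (HFD) in siNT and 9.23 to 14.7 TPM in the 4 C libraries, so the siNampt and siNT libraries overlapped in ND and did not in HFD. Set side by side within a batch, siNampt was the lower in both batches of each diet. In ND it was at 12.4 against 15.3 TPM (batch 1) and 8.83 against 10.2 TPM (batch 2). In HFD it was at 11.6 against 14.6 TPM and 11.1 against 13.8 TPM. The edgeR tests given below called 0 genes between siNampt and siNT in either diet, so Nampt was not called. The share of all genes without overlap in HFD was not counted. In these pools of whole embryos, fewer cells of a type and less RNA per cell cannot be told apart.

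As background, each synthetase joins its amino acid to ATP and then to the end of the matching tRNA. Class I and class II enzymes have unrelated catalytic folds. In the cytosol 8 of the enzymes listed here (Dars, Eprs, Iars, Kars, Lars, Mars, Qars and Rars) are held in the multi-synthetase complex by the scaffold proteins Aimp1, Aimp2 and Eef1e1. Eprs joins the glutamate and the proline enzyme in 1 protein, Farsa and Farsb are the subunits of the phenylalanine enzyme, and Kars and Gars each encode a cytosolic and a mitochondrial form. The mitochondrial enzymes are encoded in the nucleus and charge the tRNAs used to make the proteins of the respiratory chain. When a cell runs short of amino acids or is stressed in other ways, the kinases of the integrated stress response raise the translation of the transcription factor Atf4, which binds C/EBP-ATF response elements and turns on genes of amino acid synthesis and many cytosolic synthetases.

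The C/EBP-ATF response element was searched for because Atf4 is known to act on many cytosolic synthetase genes through it. The letters searched were TGATGNAA, or TTNCATCA on the other strand, in RefSeq promoters (GRCm38.p6) from 250 bases before to 50 bases after the start of each gene on both strands, and no other motif was searched. A promoter was matched for 27 of the 36 genes. The letters occurred in 5 of 13 cytosolic promoters (38.5%), in 0 of 14 mitochondrial promoters, and in promoters of 1219 of all 27025 genes in the promoter table (4.51%). The 30-base windows around 5 of the 6 matches are printed below 5′ to 3′ on the strand of the gene, with the matched letters in capitals, since these are the promoters whose genes are followed in the replicate comparison.
Aars, chr8:111033840-111033869, + strand: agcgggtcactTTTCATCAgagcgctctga
Gars, chr6:55037960-55037989, + strand: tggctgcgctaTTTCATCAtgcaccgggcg
Iars, chr13:49682126-49682155, + strand: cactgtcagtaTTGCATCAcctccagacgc
Tars, chr15:11399655-11399684, - strand: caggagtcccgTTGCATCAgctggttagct
Yars, chr4:129189895-129189924, + strand: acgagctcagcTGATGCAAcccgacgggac
Counted from the start on which each promoter window is placed, which for Aars and Yars lies inside the RefSeq span of the gene, the matches shown began at 10 in Aars, -30 in Gars, 8 in Iars, -15 in Tars and 4 in Yars. A match describes letters and is not a measured binding site. Of 12 genes listed for the ATF4 response, 4 held a match (Trib3, Chac1, Asns and Atf3).

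Transcripts of the cytosolic synthetases were more abundant than those of the mitochondrial ones in every library. On the TPM scale, which is per length, the median cytosolic gene had a mean of 37.0 TPM and the median mitochondrial gene 7.69 TPM. Library by library the class medians lay at 31.4 to 46.7 TPM and 5.73 to 8.80 TPM, and the log2 difference between them, on the log2(TPM + 1) scale, was 2.07 to 2.30 with a median of 2.22. Only 2 mitochondrial genes (Lars2 and Rars2) had a mean above the median cytosolic gene, and 1 cytosolic gene (Vars) had a mean below the median mitochondrial gene.

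Among the cytosolic genes the asparagine enzyme Nars (chr18:64499655-64516515) was highest, at 167, 226 and 399 TPM (lowest, median and highest of 12 libraries). Dars, the aspartate enzyme of the complex, followed at 151, 205 and 249.8 TPM and Rars, the arginine enzyme of the complex, at 124, 187 and 259.9 TPM. The ranges of these genes overlapped, so their order was not the same in each library. At the other end stood Cars, the cysteine enzyme, at 10.4, 15.4 and 27.4 TPM, and Vars, the valine enzyme, at 1.92, 2.77 and 3.62 TPM, and these did not overlap. Vars still had at least 371 expected counts in each library. The other 15 cytosolic genes had means between 17.6 TPM (Aars) and 148 TPM (Farsb). The subunits of the phenylalanine enzyme were unequal in transcript level, with 101, 153 and 173 TPM for Farsb and 17.9, 27.3 and 36.4 TPM for Farsa. The complex scaffolds were at 210.4 to 247 TPM (Aimp1), 195 to 267 TPM (Aimp2) and 476 to 672 TPM (Eef1e1).

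The mitochondrial class had a few abundant transcripts and many scarce ones, 13 of the 16 having a mean under 15 TPM. Lars2, the leucine enzyme (chr9:123366927-123462675), was highest at 99.8, 124 and 160.3 TPM (lowest, median and highest), followed by Rars2, the arginine enzyme, at 62.8, 86.7 and 103 TPM, and Yars2, the tyrosine enzyme, at 16.7, 20.1 and 27.2 TPM. Lars2 was above Rars2 in 12 of 12 libraries although their ranges overlapped, and Yars2 lay below both ranges. Aars2, the alanine enzyme, was at 0.40, 0.865 and 1.27 TPM and Vars2, the valine enzyme, at 0.21, 0.525 and 1.01 TPM, with as few as 56 and 40 expected counts in a library, so their fold changes are less precise than those of the rest.

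Where 1 amino acid has a cytosolic and a mitochondrial gene, the cytosolic transcript was the higher in 12 of 12 libraries for 15 of the 16 pairs. The ratio of TPM values was widest for tryptophan, where Wars stood at a median of 45.2 times Wars2 (20.9 to 74.3 over libraries), and for asparagine, where Nars stood at 25.4 times Nars2 (20.6 to 38.3). Alanine (Aars over Aars2) had a median ratio of 20.3. Eprs was 14.1 times Ears2 and 13.7 times Pars2. Ratios of 5.12 to 7.80 were found for threonine, methionine, serine, valine and histidine. Cysteine, isoleucine, phenylalanine (Farsa) and arginine had 2.17 to 2.95. The phenylalanine ratio used Farsa, the subunit of lower transcript level (mean 26.6 TPM), over Fars2 (mean 11.8 TPM). Farsb, at a mean of 148 TPM, was not set against Fars2, so the place of phenylalanine depends on the subunit used. Tyrosine was nearly even, Yars over Yars2 being 1.37 (1.01 to 1.81). Leucine was the exception: Lars stood at 0.18 times Lars2 (0.14 to 0.28), and Lars2 was the higher in 12 of 12 libraries.

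**Figure D1:**
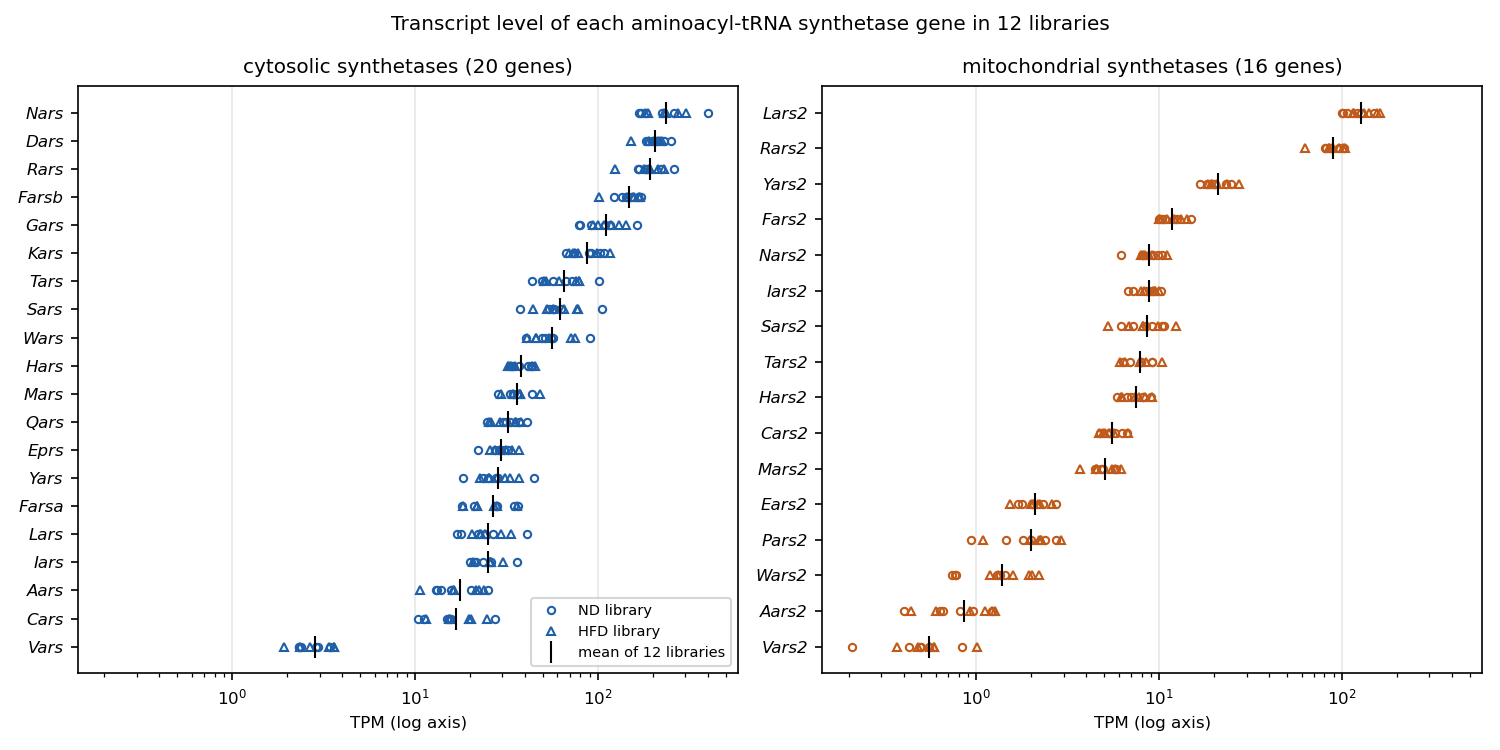
Transcript level (TPM, log axis) of each gene in the 12 libraries, cytosolic left and mitochondrial right, each ordered by mean. Circles are ND libraries, triangles HFD libraries and bars the mean of 12. Lars2 and Rars2 have means above the median cytosolic gene, while 13 of the 16 mitochondrial means are under 15 TPM.

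Some of these counts share sequence or position with other genes. Iars matched its processed pseudogene Gm4849 at 96.0% identity over 1656 bases of its transcript, so its reads may be split. Hars and Hars2 lie head to head on chromosome 18 with 195 bases of transcript in common on opposite strands. Iars2, Farsb, Cars2, Fars2, Nars2 and Vars2 share 115 to 2034 bases with a gene on the opposite strand, and Aars shares 1326 bases at its end with Exosc6 on the same strand. The sources used here do not say whether the counting used strand.

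The first comparison the design sets is the Nampt siRNA against the non-targeting siRNA. No synthetase gene passed the test (edgeR quasi-likelihood, Benjamini-Hochberg over 14743 genes), with 4 libraries against 4 over both diets: 0 of 36 genes were called, beside 0 of all genes (0%). At an unadjusted p under 0.05 there were 3 of 36 (8.33%), all higher in siNampt, beside 11.2% of all genes and 6.10% higher. DESeq2 called 1 gene in all, and 0 of the 36. DESeq2, limma and edgeR without a filter on low counts also called 0 of the 36 in each of the other comparisons of treatment, diet and batch 2 against batch 1 given below. In the main edgeR test the 3 genes were Aars2, Farsa and Sars2, and Vars was the next of the cytosolic class.

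Aars2 stood at 0.40 and 0.63 (ND) and 0.92 and 0.60 TPM (HFD) in siNT, and at 0.96 and 1.22 (ND) and 1.11 and 1.27 TPM (HFD) in siNampt. The siNampt libraries were thus all above the siNT libraries, but the 4 C libraries, at 0.44 to 1.22 TPM, overlapped both. Its log2 difference was 0.72 (SE 0.30, adjusted p = 0.409, edgeR). Sars2, the mitochondrial serine enzyme, stood at 6.14, 7.18, 8.12 and 6.85 TPM in siNT and at 10.3, 10.6, 8.12 and 12.4 TPM in siNampt, in the order ND 1, ND 2, HFD 1 and HFD 2. All but 1 siNampt library (HFD_siNampt 1, level with the highest siNT library) were above the siNT range, and the log2 difference was 0.40 (SE 0.18, adjusted p = 0.433, edgeR). Farsa stood at 21.1, 17.9, 27.0 and 18.4 TPM in siNT and at 36.4, 28.02, 21.9 and 36.1 TPM in siNampt, in the same order. Its groups overlapped through HFD batch 1, where siNampt was the lower by 0.26 on the log2 CPM scale, and the difference was 0.39 (SE 0.16, adjusted p = 0.419, edgeR). Vars stood at 2.33, 2.33, 2.66 and 2.34 TPM in siNT and 3.41, 2.88, 3.62 and 3.60 TPM in siNampt, without overlap, with a log2 difference of 0.34 (SE 0.17, adjusted p = 0.475, edgeR).

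In TMM-scaled CPM, 4 of the 36 genes (Vars, Aars2, Sars2 and Tars2, the mitochondrial threonine enzyme) had all siNampt libraries above all siNT libraries, beside 3.38% of all genes, and 0 had them all below, beside 2.71%. The median log2 difference was 0.09 over cytosolic and 0.17 over mitochondrial genes, with 25 of 36 above 0, beside 0.03 over all genes tested. Leaving out ND_siNampt replicate 1 turned the cytosolic median to -0.11.

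Within ND, 30 of 36 genes had estimates above 0 and the medians were 0.25 (cytosolic) and 0.21 (mitochondrial), beside 0.01 over all genes. Of the 36, 0 were called, beside 0% of all genes, and 1 (Farsa, 0.55, SE 0.24, adjusted p = 0.588, edgeR) had an unadjusted p under 0.05, beside 8.34% of all genes. The next smallest p-values belonged to Sars, the cytosolic serine enzyme (0.57, SE 0.32), Pars2, the mitochondrial proline enzyme (0.76, SE 0.38), and Aars2 (0.91, SE 0.45). The cytosolic median came mostly from batch 1, where siNampt minus siNT was 0.40 on the log2 CPM scale with 17 of 20 genes above 0. In batch 2 it was 0.08 with 12 of 20 above 0. Without ND_siNampt replicate 1 the ND median was -0.11, and Sars went from 0.57 to 0.01. Without ND_siNampt replicate 2 the median was 0.58 and Sars 0.98. The genes at an unadjusted p under 0.05 were 0 of 36 without replicate 1 (beside 6.98% of all genes), 10 of 36 without replicate 2 (beside 6.21%) and 5 of 36 with the replicate block within diet (beside 11.5%), with 0 called in each (edgeR). Summed trophectoderm markers (5 of 5 detected) also differed between these groups, at 4789 to 5134 TPM in ND_siNampt and 2724 to 3127 TPM in ND_siNT, and their part in the synthetase values was not tested.

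Within HFD the cytosolic median was -0.09 and the mitochondrial median 0.06, beside 0.04 over all genes, and 17 of 36 genes were above 0. The cytosolic medians were -0.06 in batch 1 and -0.20 in batch 2. Of the 36, 0 were called, beside 0% of all genes. Rars2 stood at 95.9 and 101 TPM in HFD_siNT and at 62.8 and 84.9 TPM in HFD_siNampt (replicates 1 and 2), and its log2 difference of -0.54 (SE 0.19, adjusted p = 0.923, edgeR) was the 1 value of the 36 with an unadjusted p under 0.05, beside 4.27% of all genes. Rars (-0.52, SE 0.24), Farsb (-0.36, SE 0.20) and Mars2, the mitochondrial methionine enzyme (-0.34, SE 0.22), followed, and all 3 had their lowest CPM of the 12 libraries in HFD_siNampt replicate 1, as did Rars2. That library was the lowest for 5 of 20 cytosolic and 3 of 16 mitochondrial genes, beside 11.4% of all genes. It was also the highest for 14.1% of all genes. Leaving out 1 library at a time, the cytosolic median ranged over -0.24 (without HFD_siNampt replicate 2) to 0.05 (without HFD_siNT replicate 2) and the mitochondrial median over -0.003 to 0.15 (without HFD_siNampt replicate 2 and 1). Rars ranged over -0.81 to -0.24, Farsb over -0.64 to -0.14, Mars2 over -0.60 to -0.12 and Rars2 over -0.73 to -0.39, each furthest from 0 without HFD_siNampt replicate 2.

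The difference between the diets in the response to siNampt (HFD minus ND) was tested directly and had 0 of 36 genes called and 0 at an unadjusted p under 0.05, beside 0% and 3.06% of all genes. The estimates were below 0 for 29 of 36, with medians of -0.32 (cytosolic) and -0.15 (mitochondrial) beside 0.02 over all genes. Nars (-0.77, SE 0.48) and Yars, the tyrosine enzyme (-0.65, SE 0.42), had the smallest p among cytosolic genes and Rars2 (-0.45, SE 0.26) and Mars2 (-0.52, SE 0.31) among mitochondrial ones, each with an adjusted p of 1.00 (edgeR). Without ND_siNampt replicate 1 the cytosolic median was 0.03 and Nars -0.03. Without ND_siNampt replicate 2 the median was -0.59 and Nars -1.27, and 8 of 36 genes had an unadjusted p under 0.05, beside 4.16% of all genes, with 0 called (edgeR).

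**Figure D2:**
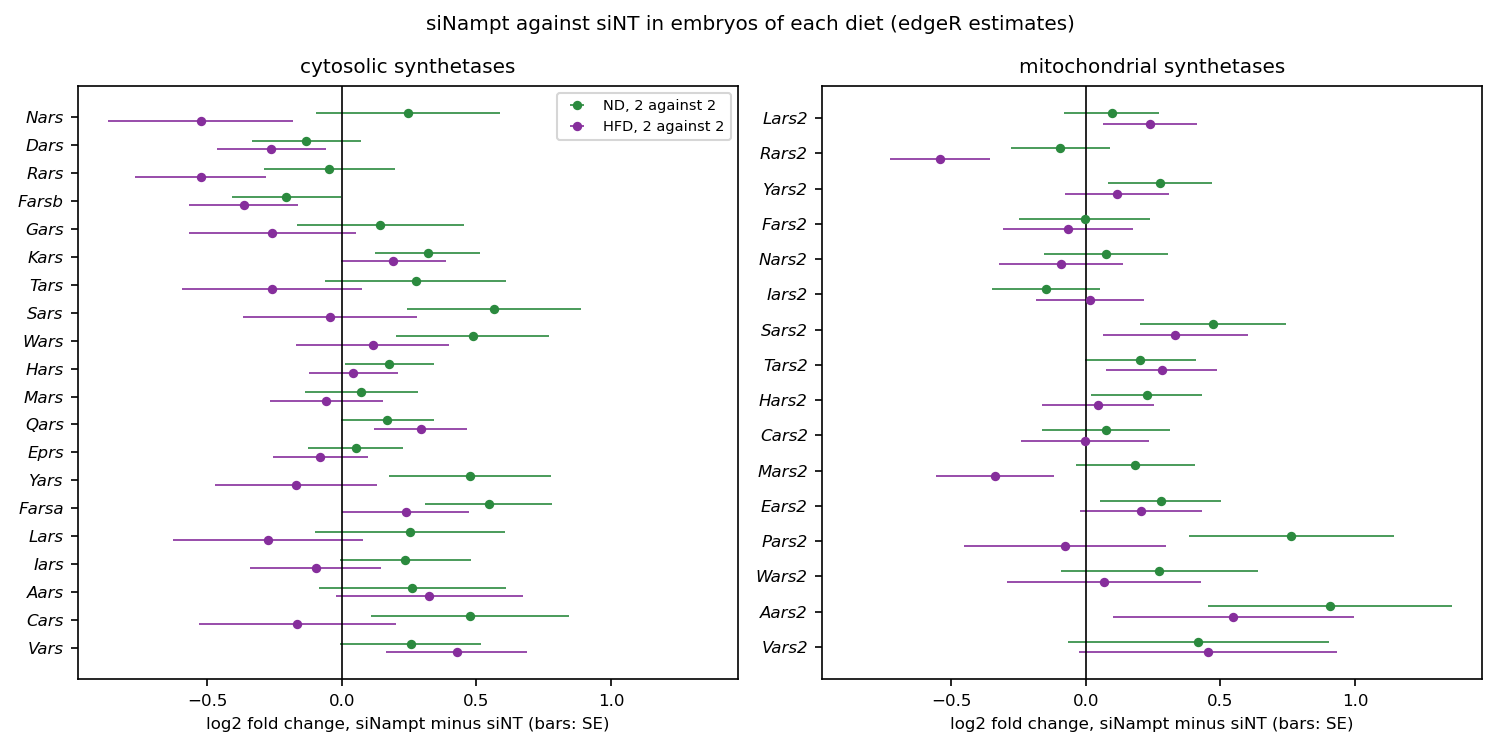
Log2 fold change of siNampt against siNT (x axis, edgeR estimates, bars are SE) for each gene in ND (green) and HFD (purple), 2 libraries against 2 each. In ND 30 of 36 estimates lie above 0 and in HFD 17 of 36, and 0 pass the test in either diet.

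The controls bear on the same groups. In siNT against C, over both diets, 0 of 36 genes were called and 0 had an unadjusted p under 0.05, beside 0% and 4.40% of all genes. The medians were -0.01 (cytosolic) and -0.07 (mitochondrial), the first ranging over -0.10 to 0.13 without HFD_C replicate 1 or 2. Kars, the lysine enzyme (-0.23, SE 0.13), Farsa (-0.29, SE 0.16), Wars2, the mitochondrial tryptophan enzyme (-0.42, SE 0.25), and Rars2 (0.18, SE 0.15) had the smallest p of their classes, each with an adjusted p of 0.984 (edgeR). In siNampt against C the counts were again 0 and 0 of 36, beside 0% and 3.80% of all genes, and the medians were 0.07 and 0.09. The cytosolic median there was -0.08 without ND_siNampt replicate 1 and 0.19 without HFD_C replicate 2. Vars (0.32, SE 0.17), Farsb (-0.23, SE 0.15), Sars2 (0.32, SE 0.18) and Aars2 (0.52, SE 0.30) led there, each with an adjusted p of 0.999 (edgeR). These comparisons share the siNampt, siNT or C libraries with each other.

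Diet, HFD against ND over all treatments with 6 libraries each, left the class medians near 0: the cytosolic median log2 difference was -0.01, the mitochondrial -0.02 and that of all genes 0.00. For cytosolic genes, libraries of one diet and batch mostly moved together (given below), so the 6 libraries of a diet are not 6 independent values. The cytosolic median ranged over -0.10 (without HFD_C replicate 2) to 0.12 (without ND_siNampt replicate 1) and the mitochondrial over -0.06 (without ND_siNT replicate 2) to 0.04 (without ND_siNampt replicate 1). Of the 36 genes 0 were called, beside 0% of all genes, and 1 had an unadjusted p under 0.05, beside 3.22%. That gene was Wars2 (chr3:99140107-99221230). In ND it stood at 1.35 and 1.44 TPM in ND_C, 0.74 and 0.77 in ND_siNT, and 1.30 and 0.76 in ND_siNampt (replicates 1 and 2 in each). The HFD values were 1.95 and 1.59 TPM (C), 2.01 and 1.18 TPM (siNT) and 2.19 and 1.32 TPM (siNampt). Within C and siNT both HFD libraries were above both ND libraries, while in siNampt the order depended on the scale: HFD_siNampt replicate 2 was above ND_siNampt replicate 1 in TPM but below it in CPM (5.03 and 5.41), and the ranges over all treatments overlapped. The log2 difference was 0.69 (SE 0.20, unadjusted p = 0.0042, adjusted p = 1.00, edgeR), positive in 6 of 6 pairs of the same treatment and batch, at 0.55, 1.11 and 0.71 in batch 1 and 0.15, 0.54 and 0.60 in batch 2 (C, siNT and siNampt). Without any 1 library it lay between 0.56 and 0.79. Wars2 was picked by its p-value from these same libraries, so the order of its pairs and groups is not separate support. The share of all genes with such orders was not counted. Wars, the cytosolic counterpart of Wars2, had no such order, with 40.1 to 90.0 TPM in ND and 41.0 to 75.1 TPM in HFD.

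Of the other genes with the smallest p in that comparison, Hars, the histidine enzyme, had -0.11 (SE 0.09), Qars, the glutamine enzyme, -0.10 (SE 0.10), and Lars2 0.17 (SE 0.10), each with an adjusted p of 1.00 (edgeR). Among C libraries alone, 2 against 2, 27 of 36 estimates were above 0, with medians of 0.13 (cytosolic) and 0.06 (mitochondrial) beside -0.01 over all genes. There 0 of 36 were called and 0 had an unadjusted p under 0.05, beside 0% and 2.81% of all genes. Cars led with 0.51 (SE 0.37, adjusted p = 1.00, edgeR), which was -0.07 without HFD_C replicate 2 and 0.93 without HFD_C replicate 1. The cytosolic median was likewise -0.14 and 0.35 without those libraries.

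The near-zero diet medians held opposite values in the 2 batches. In batch 1 the cytosolic median of HFD minus ND was -0.19 in C, -0.22 in siNT and -0.71 in siNampt (log2 CPM), with 17, 17 and 18 of 20 genes below 0. In batch 2 it was 0.43, 0.34 and 0.26, with 17, 17 and 18 of 20 genes above 0. The medians over all genes were between -0.02 and 0.03 in these 6 comparisons. The mitochondrial medians were -0.07, 0.03 and -0.25 in batch 1 and 0.20, 0.11 and 0.12 in batch 2.

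The same values read as differences between replicates show where the cytosolic genes varied. In ND the cytosolic synthetases were higher in replicate 1 than in replicate 2 for 14 of 20 genes in C, 19 of 20 in siNT and 19 of 20 in siNampt, with median log2 differences of 0.14, 0.36 and 0.69. In HFD they were lower in replicate 1 for 18, 17 and 14 of 20, with medians of -0.47, -0.33 and -0.22. Over all genes 48.2 to 51.05% were higher in replicate 1. The summed cytosolic TPM showed it in all 6 groups: 1422 and 1350.2 in ND_C, 1496 and 1137 in ND_siNT, 2013 and 1233 in ND_siNampt, and in the HFD groups 1305 and 1670.4 (C), 1362 and 1566 (siNT) and 1147 and 1565 (siNampt), replicates 1 and 2 each. ND_siNampt replicate 1 was the library of highest CPM for 13 of 20 cytosolic genes, whereas it was the highest for 7.83% of all genes tested. The mitochondrial genes differed less, with medians between -0.27 and 0.24, and were higher in replicate 1 for 9, 10 and 11 of 16 in ND and for 2, 10 and 4 of 16 in HFD.

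**Figure D3:**
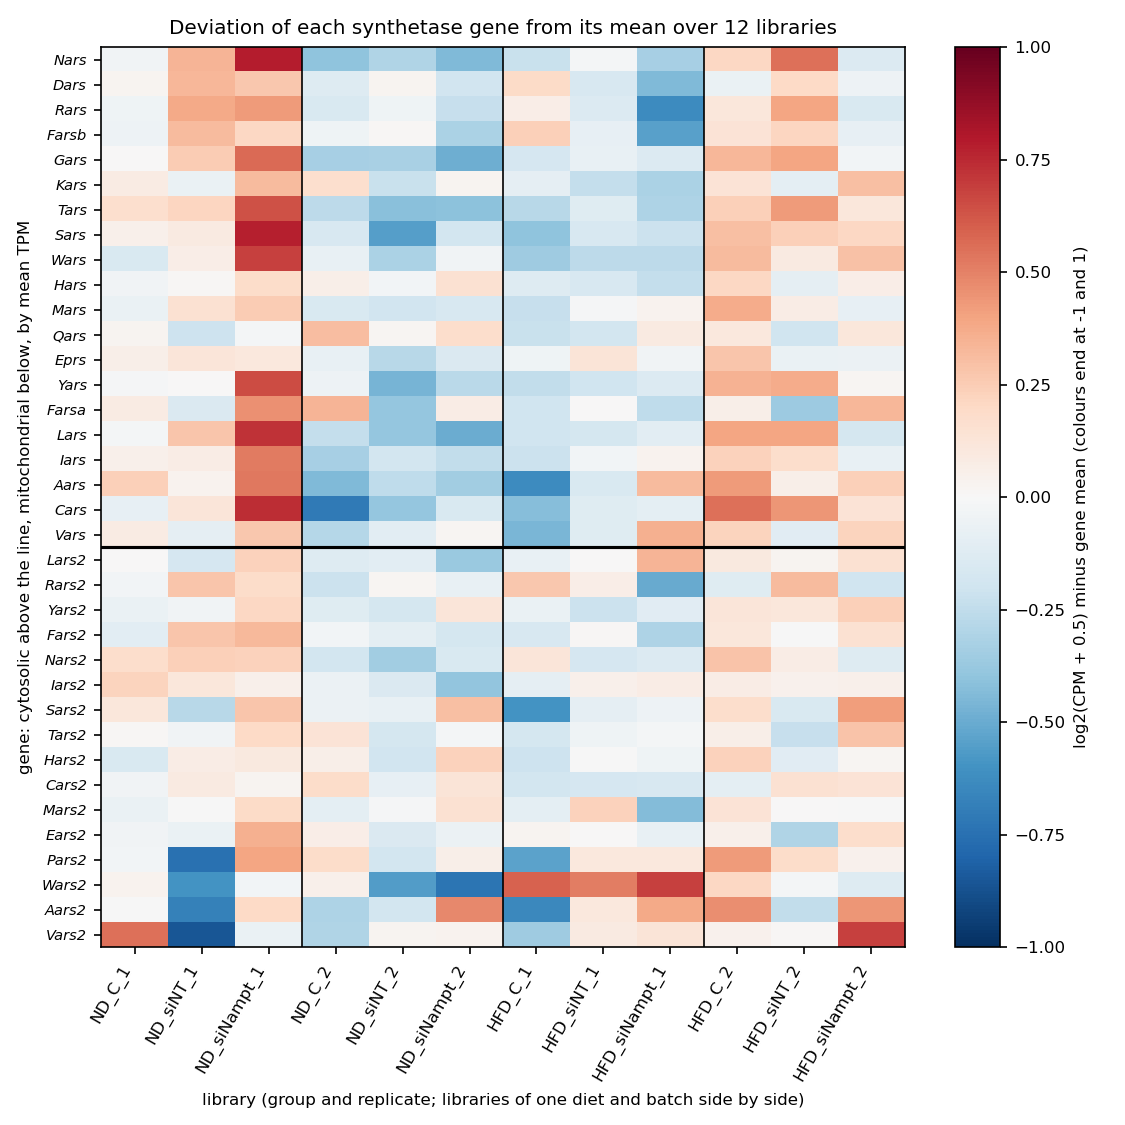
Deviation of each gene (rows, cytosolic above the black line) from its mean over 12 libraries, in log2(CPM + 0.5), with libraries of one diet and batch side by side. Cytosolic genes are mostly above their mean in ND batch 1 and HFD batch 2 and below it in ND batch 2 and HFD batch 1, and ND_siNampt replicate 1 is the highest library for 13 of 20.

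Batch 2 against batch 1 over all 6 groups called 58 of 14743 genes (0.393%) and 0 of the 36, with 1 (Wars2, -0.43, SE 0.18, adjusted p = 0.467, edgeR) at an unadjusted p under 0.05, beside 9.43% of all genes. Qars (0.18, SE 0.09), Hars (0.12, SE 0.09) and Sars2 (0.21, SE 0.15) had the next smallest p of their classes, with adjusted p-values of 0.589 to 0.746 (edgeR). The difference between the diets in the change from batch 1 to batch 2 was therefore tested as well, with the value being the HFD change minus the ND change. This comparison was chosen after the replicate differences had been seen, so its p-values are not independent of them. Its p-values also measure the spread between pairs of libraries and not between batches, since each diet had only batch 1 and batch 2. It called 54 of 14743 genes (0.366%), 30 of them higher and 24 lower, and 4 of the 36 synthetases, all cytosolic, outside the complex and higher (0.203% of all genes were called higher). At an unadjusted p under 0.05 there were 15 of 20 cytosolic and 1 of 16 mitochondrial genes, beside 10.8% of all genes. The estimates were above 0 for 19 of 20 and 15 of 16, with medians of 0.70 and 0.21 beside -0.01 over all genes. The difference between the classes was not tested.

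The 4 called genes were Tars (chr15:11383663-11399658), the threonine enzyme, Cars (chr7:143557230-143600090), Sars (chr3:108424864-108445259) and Nars. Tars stood at 71.9 and 56.4 TPM in ND_C, 66.5 and 43.3 in ND_siNT, and 101 and 49.2 in ND_siNampt (replicates 1 and 2). In HFD the values were 50.8 and 78.4 TPM (C), 61.0 and 78.2 TPM (siNT) and 51.9 and 76.1 TPM (siNampt). Replicate 1 was thus the higher in all 3 ND groups and the lower in all 3 HFD groups, and the difference was 1.198 (SE 0.18, adjusted p = 0.0241, edgeR). The 4 genes were picked by this difference, which is built from the replicate differences, so their replicate order is not separate support. The share of all genes with that order was not counted.

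Nars stood at 222 and 182 TPM in ND_C, 259 and 167 in ND_siNT, and 399 and 172 in ND_siNampt. In HFD, Nars was at 188 and 273 TPM (C), 234 and 304 TPM (siNT) and 182 and 229 TPM (siNampt), again with replicate 1 the higher in each ND group and the lower in each HFD group. The difference was 1.15 (SE 0.21, adjusted p = 0.0403, edgeR), and its change from batch 1 to batch 2 was -0.75 (SE 0.15) in ND and 0.40 (SE 0.15) in HFD.

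Sars stood at 62.7 and 56.9 TPM in ND_C, 57.7 and 37.2 in ND_siNT, and 105 and 54.2 in ND_siNampt. The HFD libraries had 43.8 and 77.2 TPM (C), 56.4 and 65.0 TPM (siNT) and 52.3 and 76.7 TPM (siNampt), and its replicates were ordered as those of Nars in all 6 groups. The difference was 1.12 (SE 0.20, adjusted p = 0.0398, edgeR). Cars stood at 15.3 and 10.4 TPM in ND_C, 15.8 and 11.1 in ND_siNT, and 27.4 and 14.9 in ND_siNampt. For HFD the values were 11.5 and 24.6 TPM (C), 15.4 and 20.1 TPM (siNT) and 15.2 and 19.8 TPM (siNampt), with the same order in all 6 groups and a difference of 1.28 (SE 0.23, adjusted p = 0.0385, edgeR). Gars, the glycine enzyme, missed the threshold at 1.02 (SE 0.20, adjusted p = 0.0542, edgeR). Qars was the 1 cytosolic gene below 0, at -0.13 (SE 0.18). Among mitochondrial genes Nars2, the asparagine enzyme, had 0.59 (SE 0.20, adjusted p = 0.284, edgeR) and Fars2, the phenylalanine enzyme, 0.52 (SE 0.25, adjusted p = 0.480, edgeR).

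The calls changed when libraries were left out. In this comparison each group has its own mean, so leaving out either library also takes away what its partner tells about the batch change. Each omission thus removes a pair, and a lost call does not point to 1 library. For Tars the estimates were 1.2022 and 1.20208 without HFD_C replicate 1 and 2. Without replicate 1 or 2 of ND_siNampt, HFD_C or HFD_siNT, all 4 lost the call, with adjusted p-values of 0.0513 to 0.116 (edgeR), and Sars also lost it without ND_siNT replicate 1 (0.0653) or 2 (0.0558). The estimates kept their sign, at 0.91 to 1.46, and the number of genes called over the whole table went from 54 to between 13 (without HFD_siNT replicate 1 or 2) and 355 (without HFD_siNampt replicate 1). The synthetases called rose from 4 to 8 of 36 without either ND_C library (beside 0.648 and 0.63% of all genes) and to 10 of 36 without either HFD_siNampt library (beside 2.28 and 2.24%). DESeq2 called 10 of the 36, beside 2.18% of all genes. With limma on log2(TPM + 1) it was 0 of the 36, beside 1 gene in all (0.00678%), with adjusted p-values of 0.135 to 0.199 for the 4.

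Complex members and the other cytosolic genes both followed this order. With 0.366% of all genes called and a median of -0.01 over them, a count of 0 called in lists as short as these is no result about a list. The median diet difference of the batch change was 0.47 over the 8 complex members (7 above 0, 0 called) and 0.97 over the 12 others (12 above 0, 4 called). The difference between these medians was not tested. Class I and class II genes had medians of 0.38 and 0.47, with 1 and 3 called. The complex scaffolds, whose products hold the enzymes together, had a median of 0.13 and 0 of 3 called. The cytosolic elongation factors, which deliver charged tRNA to the ribosome and move it along, had 0.13 and 0 of 5 called, and the mitochondrial elongation factors 0.41 and 0 of 4. The amidotransferase and formyl transferase genes of mitochondria had a median of 0.29 with 0 of 4 called, the editing genes 0.09 with 0 of 3, and the tRNA export and end genes -0.08 with 0 of 2.

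**Figure D4:**
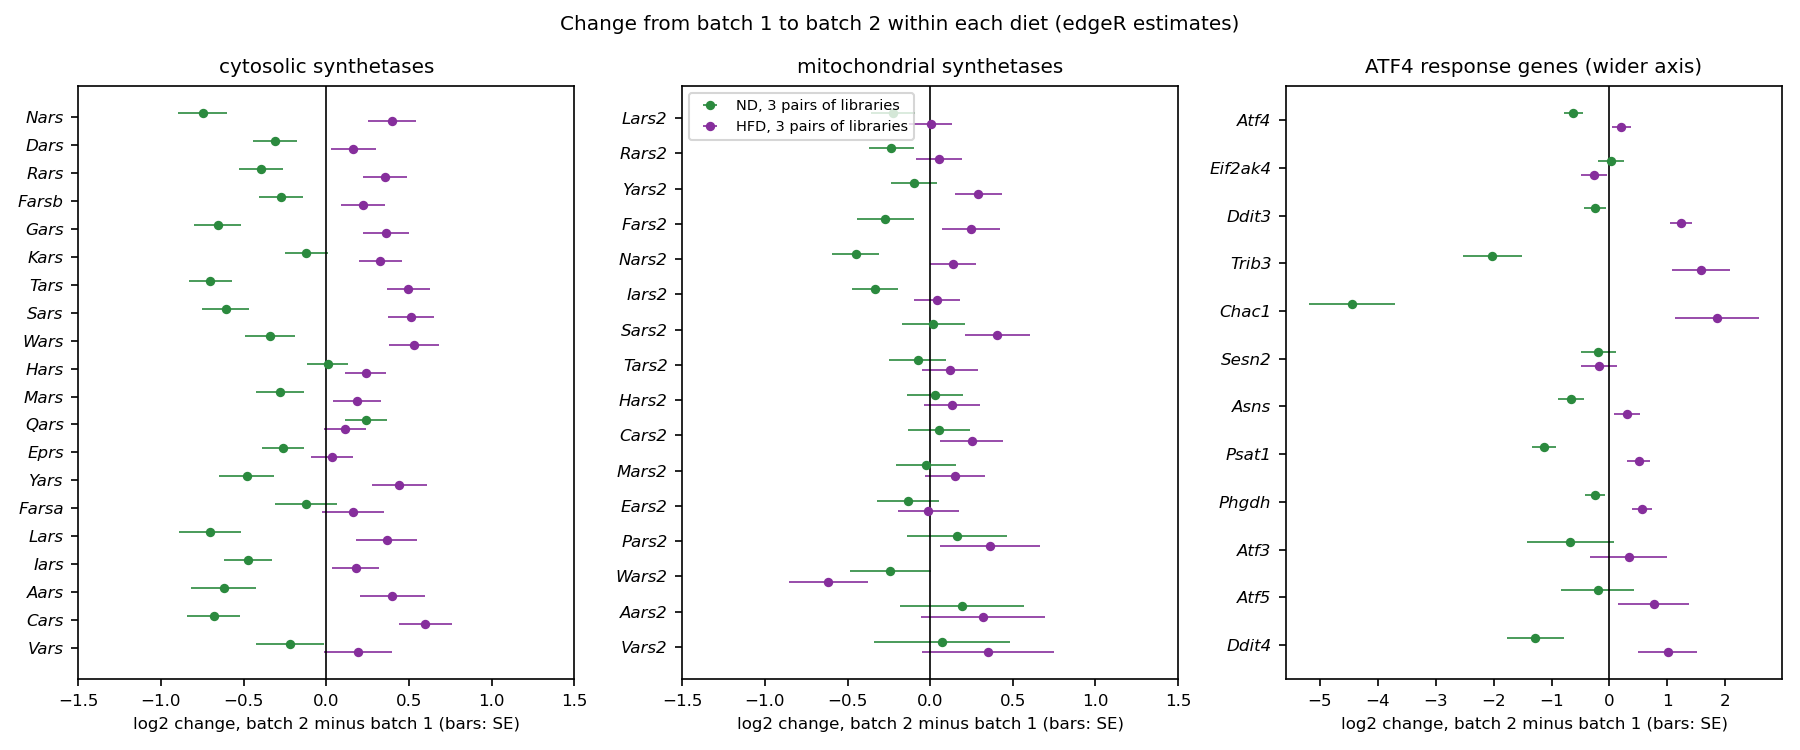
Log2 change from batch 1 to batch 2 (x axis, edgeR estimates, bars are SE) within ND (green) and within HFD (purple), 3 pairs of libraries each, for cytosolic synthetases, mitochondrial synthetases and the ATF4 response list, the last on a wider axis. In ND 18 of 20 cytosolic estimates lie below 0 and in HFD 20 of 20 lie above 0.

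The ATF4 response list had the same order in 5 of the 6 groups. Its genes were higher in replicate 1 for 8, 11 and 11 of 12 in ND (C, siNT and siNampt) and lower for 12 and 10 of 12 in HFD_C and HFD_siNT, but higher for 8 of 12 in HFD_siNampt. Of its 12 genes, 11 had a diet difference of the batch change above 0, 8 had an unadjusted p under 0.05 and 3 were called, with a median of 0.99, beside 10.8% and 0.366% of all genes and a median of -0.01 over them. The called genes were Chac1, a glutathione-degrading enzyme (6.30, SE 1.04, adjusted p = 0.0353, edgeR), Psat1, an enzyme of serine synthesis (1.64, SE 0.28, adjusted p = 0.0374, edgeR), and Ddit3, the stress transcription factor CHOP (1.48, SE 0.27, adjusted p = 0.0405, edgeR). Without either HFD_siNT library, or with limma on log2(TPM + 1), none of these 3 genes was called, with adjusted p-values of 0.0892 to 0.166 (edgeR and limma). Psat1 was not called without either HFD_C library (adjusted p = 0.106 and 0.108, edgeR). Ddit3 was not called without HFD_C replicate 2 (adjusted p = 0.0513, edgeR), ND_siNT replicate 1 (0.0523) or either ND_siNampt library (0.0943 and 0.0902). Across the leave-one-out fits and the other settings the difference stayed above 0 for all 3 genes. Psat1 stood at 90.6 and 68.5 TPM in ND_C, 146 and 66.7 in ND_siNT, and 228 and 67.3 in ND_siNampt (replicates 1 and 2). In HFD, Psat1 was at 82.8 and 141 TPM (C), 115 and 171 TPM (siNT) and 88.0 and 104 TPM (siNampt), so that replicate 1 was the higher in all 3 ND groups and the lower in all 3 HFD groups. Chac1 stood at 6.92 and 0.28 TPM in ND_C, 7.97 and 0.79 in ND_siNT, and 10.3 and 0.22 in ND_siNampt. The HFD libraries had Chac1 at 0.09 and 3.77 TPM (C), 3.62 and 12.9 TPM (siNT) and 2.53 and 1.91 TPM (siNampt), with replicate 1 the higher in HFD_siNampt as well. Psat1 and Chac1 were picked by the difference built from these replicates, so their order is not separate support.

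Atf4 itself stood at 127 and 97.8 TPM in ND_C, 132 and 88.7 in ND_siNT, and 170.3 and 94.5 in ND_siNampt. In the HFD groups Atf4 was at 89.7 and 147 TPM (C), 126 and 143 TPM (siNT) and 135 and 114 TPM (siNampt). It was not called (0.83, SE 0.23, adjusted p = 0.173, edgeR), and its order in HFD_siNampt, with replicate 1 the higher, differed from that of the other 2 HFD groups. Asns, which makes asparagine, had 0.96 (SE 0.32, adjusted p = 0.273, edgeR), and Trib3, a pseudokinase induced by Atf4, 3.61 (SE 0.71, adjusted p = 0.0542, edgeR). Within siNampt against siNT the list had 0 of 12 genes called in either diet, beside 0% of all genes. Its medians were 0.19 in ND and -0.62 in HFD, beside 0.01 and 0.04 over all genes. HFD_siNT replicate 2 was the library of highest CPM for 5 of the 12, beside 6.70% of all genes. ND_siNampt replicate 1 was the highest for 6 of the 12, beside 7.83%.

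The 5 cytosolic genes with the response element letters printed above and the 8 with a matched promoter but without the letters are set side by side by their replicate differences. In ND the medians of replicate 1 minus replicate 2 (log2 CPM) were 0.39, 0.47 and 0.92 for those with the letters and 0.04, 0.30 and 0.40 for those without, in C, siNT and siNampt. In HFD they were -0.52, -0.47 and -0.11 against -0.29, -0.11 and -0.41. The genes with the letters were higher in replicate 1 for 5 of 5 in each ND group, and lower for 5 of 5, 5 of 5 and 3 of 5 in HFD. The genes without them were higher in replicate 1 for 4, 7 and 7 of 8 in ND and lower for 6, 5 and 6 of 8 in HFD. The sets also differ in members of the multi-synthetase complex. Of the genes with the letters only Iars is in it, and of those without them Dars, Eprs, Kars, Mars and Qars are. The part of the complex in these values was not tested. The difference between these sets was not tested, and of the 4 called genes only Tars and Sars had a matched promoter, of which Tars holds the letters.

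Other measures of the libraries were set beside the replicate order. The distance between length and effective length, which follows fragment size, was 218 and 211 bases in ND_C, 218 and 214 in ND_siNT, 225 and 214 in ND_siNampt, and in the HFD groups 231 and 217 (C), 186 and 217 (siNT) and 216 and 219.7 (siNampt). It was larger in replicate 1 in the 3 ND groups and in HFD_C, and smaller in the other 2 HFD groups. Krt18 was higher in replicate 1 in all 3 ND groups (2729 and 2425, 2271 and 1865, 3786 and 3481 TPM) and in HFD_siNT (2428 and 2414 TPM), and lower in HFD_C (2106 and 2673 TPM) and HFD_siNampt (2295 and 3601 TPM). Krt8, another trophectoderm keratin, was lower in replicate 1 in ND_C (905 and 913 TPM) and ND_siNT (750 and 756 TPM). It was higher there in ND_siNampt (1202 and 1187 TPM). Among HFD groups Krt8 was lower in replicate 1 in HFD_C (754 and 918 TPM) and HFD_siNampt (909 and 1165 TPM), and higher in HFD_siNT (960 and 762 TPM). The part of fragment size and of cell composition in the synthetase values was not tested.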

How the data were processed

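RNA-seq of 12 pools of mouse blastocysts was analysed from the deposited tables, 1 per library. STAR 2.7.10, RSEM 1.2.28 and the build mm10 are named in the submitters' processing notes, and libraries were made with a SMART-Seq kit, per the labels' protocols. Per the file headers, the authors deposited RSEM expected counts, TPM, FPKM and, for each gene, a length and an effective length in bases. Expected counts were rounded for the tests, 6.43% not being whole. Deposited TPM values give levels, and the deposited FPKM values served as 1 alternative.

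Genes were filtered with filterByExpr (minimum count 10), scaled by TMM and compared in R 4.3.3 with edgeR 4.0.16 (two-sided quasi-likelihood tests on all 12 libraries, Benjamini-Hochberg over 14743 genes, threshold 0.05). Comparisons of treatment over both diets and of diet over all treatments came from a model with additive terms for diet and treatment, and comparisons within a diet or treatment and the diet difference of the siNampt response from a model of 6 group means. Batch was tested with a batch term added to the group means, and the diet difference of the batch change with a batch term for each diet. The SE was taken as the size of the log2 fold change over the root of F. DESeq2 1.42.0, RLE size factors, limma 3.58.1 on log2(TPM + 1), other filters, the replicate number as a block and leaving out each library were alternatives. The replicate block within each diet, and the diet difference of the batch change, were added after the data were seen. At 42473129 to 50503064 expected counts per library, each of the 36 genes had at least 40 counts in each library.

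The text names the 3 highest and 2 lowest genes of each class, genes past the threshold, or else the 2 of smallest p of each class. Gars, Qars, Trib3, Asns, Tars2 and Wars were also named after their values were seen. The 36 genes and the lists were chosen with earlier results of these data known. The batch tag equals the replicate number, which pairs the libraries by batch. Over 15 pairs of groups, the replicate differences correlated across genes at -0.11 to 0.456 (median 0.117), with 8 above 0.1. Transcripts were compared with blastn 2.17.0 (at least 100 bases at 95% identity) on GENCODE transcripts of GRCm38, and promoters and gene positions are from RefSeq (GRCm38.p6). Protein sequences were not analysed here. The sixth promoter window is not reported here.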

Additional observations from a re-analysis of the deposited data

Results flagged for a closer look

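Single libraries stood apart from the others of their group of values, by the gap to the nearest library against the whole range (Dixon's test at 95%), in 8 of 140 groups of values, where chance alone gives about 1 in 20, or 7. All are TPM. Cars was 27.4 in ND_siNampt replicate 1, with the next ND library at 15.8. Farsb was 101.47 in HFD_siNampt replicate 1, below the other HFD libraries at 144 and more. The same library was lowest of the siNampt libraries for Hars (32.2, next 43.1) and Mars2 (3.69, next 5.51). Mars2 was 6.17 in HFD_siNT replicate 1 (next siNT library 4.59), and Vars was 2.66 there (next 2.34). Nars2 was 11.1 in HFD_C replicate 2, above the next HFD library at 9.14, and Vars2 was 1.01 in HFD_siNampt replicate 2 (next HFD library 0.59).

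The change from batch 1 to batch 2 differed between the diets (HFD minus ND, log2, edgeR) for Cars (1.28, adjusted p = 0.0385), Nars (1.15, adjusted p = 0.0403), Sars (1.12, adjusted p = 0.0398) and Tars (1.198, adjusted p = 0.0241). The comparison was chosen after the replicate differences were seen. With limma on log2(TPM + 1) none of these genes was called (adjusted p = 0.135 to 0.199, limma), and with DESeq2 all of them were. The calls also changed when libraries were left out, as given above.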

How the results depend on the processing

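A count of 0 called genes does not show that values were equal. Of the counts of called genes and class medians under an alternative, 530 stayed within 1.5 times the count or within the replicate spread, and 43 did not. The number of genes past the threshold was 0 in each knockdown, control and diet comparison by edgeR. With DESeq2 it was 1 for siNampt against siNT over both diets, 2 in HFD, 2 for siNT against C, 2 for siNampt against C, 2 for diet, 7 for diet in C, 300 for batch and 322 for the diet difference of the batch change. With no filter on low counts 21789 genes were tested, and the prior degrees of freedom became infinite. The counts were then 119 over both diets, 108 in ND, 68 in HFD and 40 for the diet difference of the siNampt response. They were 76 for siNT against C, 71 for siNampt against C, 99 for diet and 80 for diet in C. Batch had 454 and the diet difference of the batch change 515. In that last comparison 11 of the 36 genes were called, beside 2.36% of all genes. In the others 0 of the 36 were called, beside 0.184 to 2.08% of all genes. With limma on log2(TPM + 1) batch had 33 and the diet difference of the batch change 1. The cause of these differences was not tested. The level difference between the classes was 2.36 with a pseudocount of 0.1.

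The replicate block, which pairs libraries by the batch number, called 0 genes in each of the 8 comparisons of treatment and diet and changed no call of the 36 genes. The cytosolic median of siNampt against siNT in ND was 0.23 with the replicate block. The replicate block within diet, added after the data were seen, called 1 gene for diet in C, not a synthetase, and 0 in the other 7 comparisons.

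Leaving out 1 library at a time, the number of genes called ranged over 0 to 1 for siNampt against siNT in HFD, 0 to 2 for the diet difference of the siNampt response, 0 to 1 for diet and 13 to 355 for the diet difference of the batch change. The class medians ranged over -0.11 to 0.58 (cytosolic) for siNampt against siNT in ND, -0.59 to 0.028 (cytosolic) and -0.32 to 0.028 (mitochondrial) for the diet difference of the siNampt response, -0.14 to 0.17 (mitochondrial) for diet in C, and 0.18 to 0.39 (mitochondrial) for the diet difference of the batch change. Cars in HFD against ND in C ranged over -0.070 without HFD_C replicate 2 to 0.93 without HFD_C replicate 1, a change of sign.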
